A study of Heterocephalus glaber with 9 samples.

Results

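The organic ion and ABC drug transporters of naked mole-rat liver were taken as every gene of the count table whose symbol starts with SLCO and a digit, SLC22A, SLC47A, or ABCB, ABCC or ABCG and a digit, apart from ABCB11, the bile salt export pump. This gave 53 of the 16339 gene rows. The rule picks genes by name only, but it was set with earlier results of these data known. Liver RNA of 6 young and 3 old males of this long-lived rodent (Heterocephalus glaber) was sequenced, with 1 library per animal, to compare gene expression between the ages. The young animals were 2.7 to 4.1 years old. The old animals, called A, B and C in the labels, were 20, 30 and 20 years old by those labels and were non-breeders, while the study's methods state a higher minimum age than the labels of A and C. The reproductive status of the young animals was not given. No treatment or genetic change is listed for any animal.

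Hepatocytes clear drugs, hormones and metabolic waste in sequence. Uptake carriers of the SLCO and SLC22A families bring organic anions and cations in from blood on the basolateral side, enzymes modify them, and ABC pumps use ATP to export the products into bile or back into blood. SLCO genes encode the organic anion transporting polypeptides, and the SLC22A family holds organic anion transporters, organic cation transporters and carnitine carriers. Among the pumps, the canalicular ones face bile, several ABCC proteins face blood, and some ABCB proteins sit in mitochondria or lysosomes. Most of these roles were worked out in humans, mice and rats.

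Each library held between 14541856 and 20464409 counts. Values are CPM, that is, counts scaled to library size after TMM normalisation. Differences are log2 fold changes of old against young livers from edgeR's quasi-likelihood test, each with its SE (standard error), and with FDR adjusted over 12277 tested genes and a threshold of 0.1. Old liver A and the liver of the oldest young animal (young liver 3) stood apart from the others. Over all genes tested, the Spearman correlation of A was 0.841 to B and 0.853 to C, while that of B to C was 0.989. Young liver 3 correlated at 0.901 to 0.915 to its 5 group members, and those 5 at 0.970 to 0.988 between themselves. The 15 hepatocyte markers, all in the table and none at 0, summed to 183395 to 277242 CPM in the young livers, 153116 in B, 131884 in C and 55067 in A. By log2 fold change, 13 of them were negative and 2 positive. The 10 sinusoidal endothelial markers, all present, summed to 1576 CPM in A, against 667 in B, 689.9 in C and 441 to 767 in the young livers. These markers did not move together. By edgeR 2 were called higher and 2 lower, 4 log2 fold changes were positive and 6 negative, and the median was -0.21. In whole liver, fewer cells of a type and less RNA per cell cannot be told apart. The young libraries are marked as re-used from another record and no label prefix holds both ages, so library origin and age cannot be told apart.

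SLC22A7, which encodes the organic anion transporter OAT2 of the hepatocyte's basolateral membrane, was the member most clearly higher in the old livers. It had 147 CPM in the lowest young liver, a median of 201 and 305 in the highest, against 2183, 975 and 1112 in old livers A, B and C. Every old liver lay above every young one, and A was 9.995 times, B 4.46 times and C 5.09 times the young mean. The young mean was 218 ± 68.9 CPM (SD, n = 6) and the old mean 1423 ± 662 CPM (SD, n = 3), a log2 fold change of 2.70 (SE 0.34, edgeR FDR = 0.0117). Within the young group, the 305 CPM of young liver 3 was the highest value. Without A the log2 fold change was 2.26 (edgeR FDR = 0.0163), and without A and young liver 3 together it was 2.38 (edgeR FDR = 0.00175). SLC22A7 was called higher in all 18 alternatives that refitted the genes, and its log2 fold change there lay between 2.26 and 2.91.

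SLC22A5, SLC22A31 and ABCC1 were also called higher in the old livers by edgeR. SLC22A5 encodes OCTN2, the carrier that brings carnitine into cells for fatty acid oxidation. It had 3.72 CPM in the lowest young liver, a median of 6.16 and 11.7 in the highest, against 12.5, 18.6 and 11.2 in A, B and C. Only young liver 2 overlapped the old range, and B, the oldest animal, had the highest value (log2 fold change 1.11, SE 0.35, edgeR FDR = 0.0809). SLC22A31 belongs to the same family and its substrates are little known. It had 2.29 to 6.14 CPM in the young livers (median 4.69), against 23.3 in A, 8.79 in B and 8.16 in C, so that the groups did not overlap (log2 fold change 1.64, SE 0.42, edgeR FDR = 0.0528). ABCC1, the MRP1 pump that exports glutathione conjugates and leukotriene C4, had 20.3 to 54.7 CPM in the young livers (median 33.7), against 139 in A, 54.3 in B and 48.1 in C. B and C lay below young liver 3, which had the 54.7 CPM, and above the other 5 young livers (log2 fold change 1.25, SE 0.41, edgeR FDR = 0.0850). Without A none of these 3 passed, at edgeR FDR = 0.164, 0.214 and 0.425, and the log2 fold change was 1.19 for SLC22A5, 0.98 for SLC22A31 and 0.59 for ABCC1. That fit called 2.13% of all genes higher, against 11.7% with all 9 livers. Each of the 3 also lost its call without some other single library: SLC22A5 without B or young liver 1, 4, 5 or 6 (and with upper quartile scaling), SLC22A31 without 2, 4, 5 or 6, and ABCC1 without 1, 2, 4, 5 or 6. Calls became fewer over all genes too, with 1.02% to 2.53% higher without young liver 2, 4, 5 or 6 and 6.43% without 1. Without B the share was 16.5%.

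**Figure D1:**
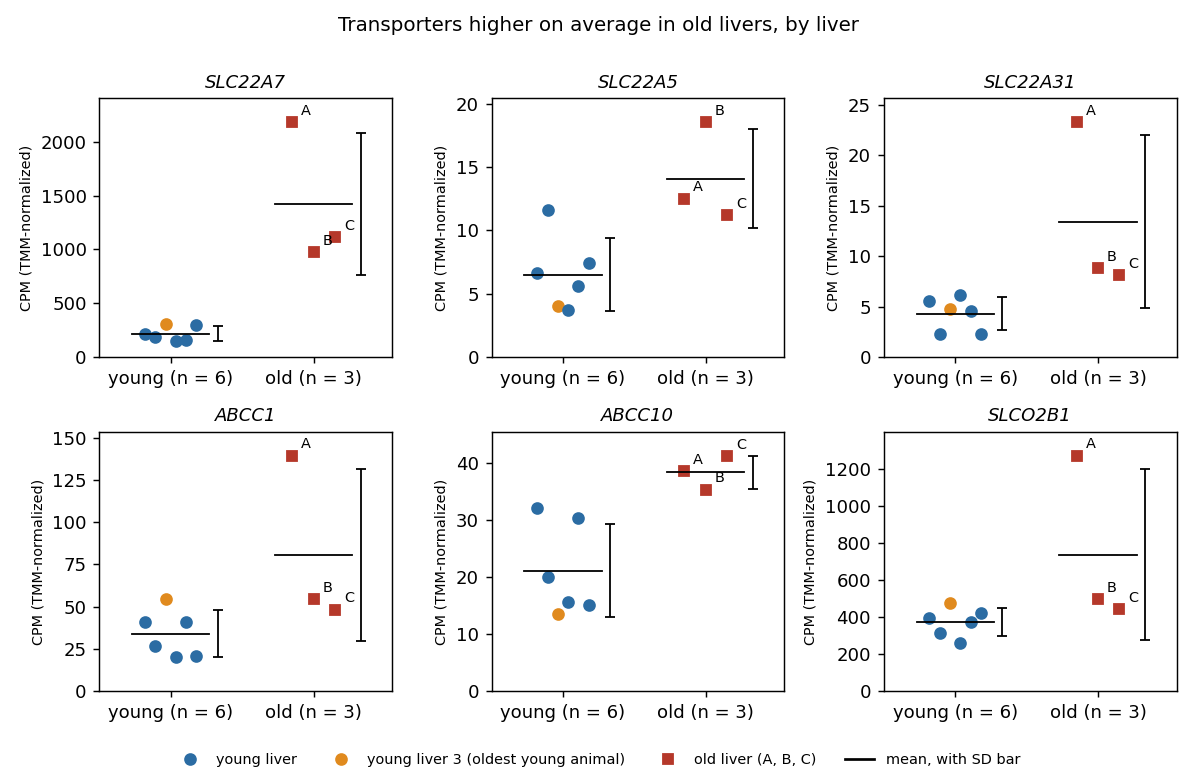
CPM of 6 transporter genes in each of 6 young (circles, young liver 3 in orange) and 3 old livers (squares, lettered), with the mean as a line and the SD as a bar beside it. In SLC22A7 the old livers, at 975 to 2183 CPM, lie above the young ones, at 147 to 305, while in ABCC1 and SLCO2B1 old liver A lies far above B and C.

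In all, 35 of the 53 genes had counts enough to be tested, and the filter kept genes by their level in either group. Of the 35, these 4 were called higher by edgeR, where 11.7% of all genes tested were called higher. No member was called lower by edgeR (0 of 35), where 3.65% of all genes were. At an unadjusted p under 0.05 the members were 9 higher and 4 lower, where 19.8% and 9.28% of all genes were. DESeq2 tested 41 members and called 7 higher and 5 lower (13.5% and 7.93% of its genes), and limma voom with quality weights called 7 of 35 higher and 13 lower (20.5% and 16.7% of genes). The 7 higher by DESeq2 were the 4 called by edgeR with ABCC5, ABCC10 and SLCO2B1. The 5 lower were ABCB10, ABCC2, ABCC4, ABCC9 and SLCO1A2. By edgeR, 11.4% of the members and 15.4% of all genes were called in either direction, so in that fit the share was near the background. With DESeq2 and voom the share called lower was larger among the members than among all genes. The median log2 fold change was -0.07 over the 35 and 0.02 over all genes tested, with 13 members positive and 22 negative. The old livers lay all above the young ones in 3 members (9.83% of all genes) and all below in 2 (8.01% of all genes), which makes 14.3% of the members and 17.8% of all genes without overlap.

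**Figure D2:**
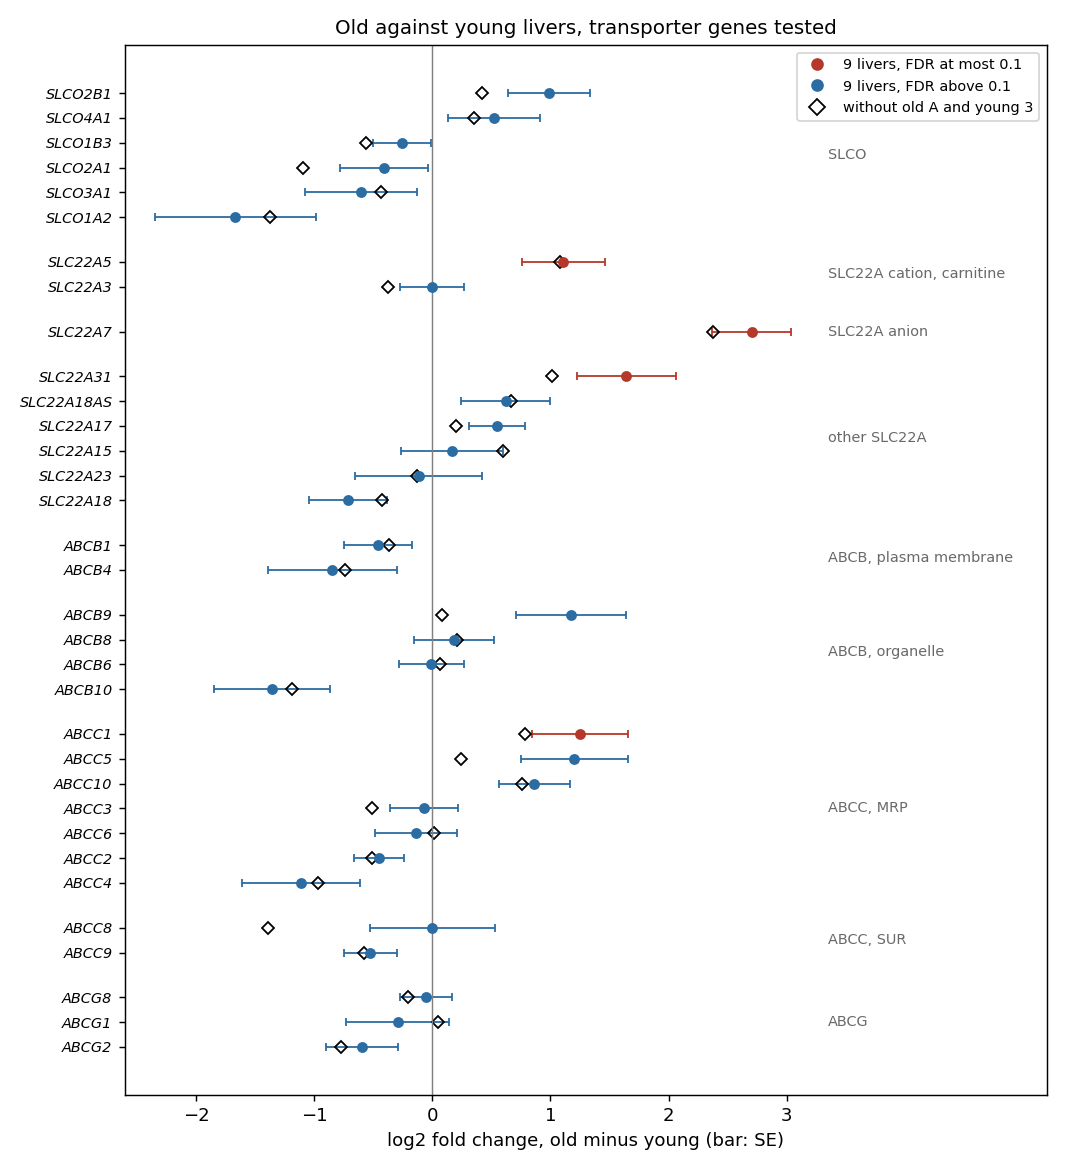
Log2 fold change of old against young livers for 33 of the 35 genes tested, with the SE as a bar, by role. Red marks the 4 genes at FDR 0.1 or less, SLC22A7 farthest to the right at 2.70, and open diamonds give the value without old liver A and young liver 3, where SLC22A7 is at 2.38.

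Among the 6 SLCO genes tested, none was called by edgeR (0 genes, 2 at an unadjusted p under 0.05, where 29.1% of all genes were), and their median log2 fold change was -0.33. SLCO1B3 bears the name of the human hepatocyte carrier of bilirubin conjugates and many drugs. It had 2105 CPM in the lowest young liver, a median of 2609.9 and 2748 in the highest, against 2758 in A, 1801 in B and 1668 in C. The highest value of all 9 livers was thus in A, while B and C lay below every young liver (log2 fold change -0.26, SE 0.25, edgeR FDR = 0.498). Without A and young liver 3 SLCO1B3 was called lower at a log2 fold change of -0.56 (edgeR FDR = 0.0438). Without A alone it was not called (-0.52, edgeR FDR = 0.185). SLCO2B1, which takes up sulfated steroids, had 258 to 473 CPM in the young livers (median 384), against 1272 in A, 495 in B and 443 in C. It narrowly missed the threshold (log2 fold change 0.99, SE 0.35, edgeR FDR = 0.101), and without A its log2 fold change was 0.34 (edgeR FDR = 0.472). SLCO2B1 was called higher in 8 of the 18 alternatives, DESeq2 and voom among them (DESeq2 FDR = 0.0582, voom FDR = 0.0851). SLCO2A1, the prostaglandin transporter, also had B and C below every young liver, with A inside the young range. Its young livers had 7.21 to 12.7 CPM (median 8.52), and A had 12.3, B 5.34 and C 3.71. The log2 fold change of -0.41 (edgeR FDR = 0.475) became -1.10 (edgeR FDR = 0.0281) without A and young liver 3. Without A alone it was -1.06 and not called (edgeR FDR = 0.116). SLCO1A2, a carrier of bile salts and steroid conjugates in human, rested on few counts, 3 to 65 per library. Its young livers had 0.624 to 3.84 CPM (median 1.12), and A had 0.168, B 0.404 and C 0.835 (log2 fold change -1.67, SE 0.68, edgeR FDR = 0.138). DESeq2 called SLCO1A2 lower (DESeq2 FDR = 0.0683) and voom did not (voom FDR = 0.137). SLCO3A1 and SLCO4A1, which are expressed in many tissues, lay at 0.651 to 7.77 CPM in the young livers, and had log2 fold changes of -0.60 and 0.52 (edgeR FDR = 0.400 and 0.381).

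SLC22A3, the cation carrier OCT3, had the same mean of 12.0 CPM in both groups, with 8.80 to 14.9 in the young livers and 17.0, 10.5 and 8.58 in A, B and C. Among the SLC22A genes of other or unknown substrate, 6 were tested and SLC22A31 alone was called, with a median log2 fold change of 0.36. SLC22A17, a receptor for the iron carrier lipocalin, had 49.1 to 61.5 CPM in the young livers, against 120.5 in A, 60.2 in B and 68.9 in C (log2 fold change 0.55, edgeR FDR = 0.156). SLC22A18 had 54.0 to 94.2 CPM in the young livers and 21.2 in A, 49.3 in B and 57.3 in C (log2 fold change -0.72, edgeR FDR = 0.176). SLC22A18AS is antisense to it in human and had a log2 fold change of 0.62 (edgeR FDR = 0.286). No source used here gives the strand setting of the counting. Reads of this pair may not have been told apart. SLC22A23 had the widest spread of the 35 genes among young livers, from 4.09 CPM in young liver 3 to 46.8, a range of 11.4-fold that fell to 2.11-fold without young liver 3.

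Of the pumps that face bile, ABCC2 separated the groups without passing the edgeR test. ABCC2, or MRP2, exports bilirubin glucuronides and glutathione conjugates across the canalicular membrane. Its young livers had 429 to 612 CPM (median 528), and the old ones had 389.8 in A, 387 in B and 381 in C. All old livers lay below all young ones and close to each other, with means of 528 ± 65.0 (SD, n = 6) and 386 ± 4.42 (SD, n = 3), a log2 fold change of -0.45 (SE 0.21, edgeR FDR = 0.183). In the fit without A and young liver 3 it was -0.51 (edgeR FDR = 0.0415), and without A alone it was -0.46 (edgeR FDR = 0.226). ABCB1, the P-glycoprotein that exports many lipophilic drugs, had 94.2 to 203 CPM in the young livers (median 170.1) and 80.0 in A, 126 in B and 147 in C. The low end of the young range was young liver 3, and the other 5 young livers had 162 CPM or more (log2 fold change -0.46, edgeR FDR = 0.293). ABCB4, the floppase that brings phosphatidylcholine into bile, ranged over 6.85-fold among young livers, from 6.47 to 44.3 CPM, with 6.26 in A, 11.5 in B and 16.4 in C (log2 fold change -0.85, SE 0.55, edgeR FDR = 0.310). ABCG2, the breast cancer resistance protein, had 3.64 to 7.68 CPM in the young livers and 3.74, 2.78 and 3.01 in A, B and C (log2 fold change -0.59, edgeR FDR = 0.211). ABCG8, which pairs with ABCG5 to move sterols into bile, had 122 to 198 CPM in young livers, and the old ones had 146 to 176, a log2 fold change of -0.05 with a SE of 0.22. ABCG5 was not analysed here.

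Of the other pumps of the ABCC family, ABCC3, ABCC4, ABCC5, ABCC6 and ABCC10 did not pass by edgeR in all 9 livers. ABCC10, or MRP7, had 13.5 to 32.0 CPM in the young livers (median 17.8) and 38.6 in A, 35.3 in B and 41.2 in C. All old livers were above all young ones, and the old livers differed little from each other, but the FDR was just above the threshold (log2 fold change 0.86, SE 0.30, edgeR FDR = 0.1001). ABCC10 was called higher in 7 of the 18 alternatives, DESeq2 and voom among them (DESeq2 FDR = 0.0729, voom FDR = 0.0248). Without A it was not called (0.86, edgeR FDR = 0.222). ABCC4, or MRP4, exports cyclic nucleotides and, in cholestasis, bile salts. It had 24.2 CPM in young liver 3 and 81.5 to 129 in the other young livers, against 20.3 in A, 52.5 in B and 58.4 in C. B and C thus lay between young liver 3 and the other young livers (log2 fold change -1.11, SE 0.50, edgeR FDR = 0.167). Without young liver 3 ABCC4 was called lower at -1.31 (edgeR FDR = 0.0485), and without A as well at -0.97 (edgeR FDR = 0.0114). Without A alone it was not called (-0.77, edgeR FDR = 0.46). In all 9 livers DESeq2 and voom called ABCC4 lower (DESeq2 FDR = 0.099, voom FDR = 0.00602). ABCC5, or MRP5, another exporter of cyclic nucleotides, had 5.08 to 10.96 CPM in the young livers, 8.61 in B and 9.32 in C, but 38.3 in A (log2 fold change 1.20, edgeR FDR = 0.119). Without A it was 0.14 (edgeR FDR = 0.849). ABCC3, or MRP3, which returns glucuronides to blood, had 359 to 645 CPM in the young livers and 705 in A, 427 in B and 344 in C (log2 fold change -0.07, SE 0.29). ABCC6, needed for the ATP release that prevents ectopic calcification, had 5.68 to 14.2 CPM in the young and 5.59 to 13.9 in the old livers (log2 fold change -0.14, SE 0.35).

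ABCC8 and ABCC9 are named with these pumps but encode the sulfonylurea receptors SUR1 and SUR2, regulatory subunits of ATP-sensitive potassium channels. ABCC9 had 6.55 to 8.32 CPM in the young livers (median 7.12) and 5.31, 5.47 and 4.54 in A, B and C. The groups did not overlap, with a log2 fold change of -0.52 (SE 0.22, edgeR FDR = 0.147). DESeq2 and voom called ABCC9 lower (DESeq2 FDR = 0.0628, voom FDR = 0.011). The 11 stellate cell markers, all present and none at 0, summed to 225 to 317 CPM in the young livers and 113, 170.3 and 156 in A, B and C, and their part in the ABCC9 difference was not tested. ABCC8, singled out after its values were seen, went in opposite ways in the old livers. It had 19.8 CPM in A, above the young range of 5.67 to 12.6, and 4.17 in B and 2.78 in C, below it. Its log2 fold change was 0.00 to 2 decimals over the 9 livers and -1.35 without A (edgeR FDR = 0.0910).

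The ABCB transporters of organelles, 5 genes tested, had a median log2 fold change of -0.01 and none called by edgeR (0 genes, 2 at an unadjusted p under 0.05, against 29.1% of all genes). ABCB10 sits in the inner mitochondrial membrane and serves heme synthesis. It had 9.97 CPM in young liver 3 and 33.8 to 48.0 in the other young livers, against 5.81 in A, 16.3 in B and 18.8 in C. B and C were below those 5 young livers and above young liver 3 (log2 fold change -1.36, SE 0.49, edgeR FDR = 0.107). Without young liver 3 the log2 fold change was -1.55 (edgeR FDR = 0.0419), and without A as well it was -1.19 (edgeR FDR = 0.00464). Without A alone ABCB10 was not called (-0.99, edgeR FDR = 0.313). In all 9 livers DESeq2 and voom called it lower (DESeq2 FDR = 0.0379, voom FDR = 0.00169). Of the 10 erythroid markers 9 were in the table, none at 0, and they summed to 990.2 CPM in young liver 3, 339 in A, 119.6 in B, 181 in C and 312 at the lowest young liver. Among the 6 erythroid markers tested, 2 log2 fold changes were positive and 4 negative. The part of these markers in the ABCB10 values was not tested. ABCB6, a porphyrin transporter, had means of 123.2 CPM in the young and 122 in the old livers (log2 fold change -0.01, SE 0.27). ABCB8, another mitochondrial member, had 5.08 CPM in young liver 3, 13.0 to 16.7 in the other young livers and 10.5, 17.0 and 16.8 in A, B and C. ABCB9, a lysosomal peptide transporter, was high in A alone, with 174.6 CPM against 34.0 in B, 37.4 in C and 24.2 to 49.0 in the young livers (log2 fold change 1.17, edgeR FDR = 0.131, and -0.02 without A). ABCG1, which moves cholesterol out of macrophages and other cells, was lowest in A at 6.31 CPM, against 26.5 in B, 21.2 in C and 13.2 to 32.3 in the young livers. The Kupffer cell markers, 9 of 10 in the table and none at 0, summed to 79.8 CPM in A and to 241 to 448.5 in the other 8 livers, and their part in the ABCG1 values was not tested. Among the 7 Kupffer cell markers tested, 3 log2 fold changes were positive and 4 negative.

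**Figure D3:**
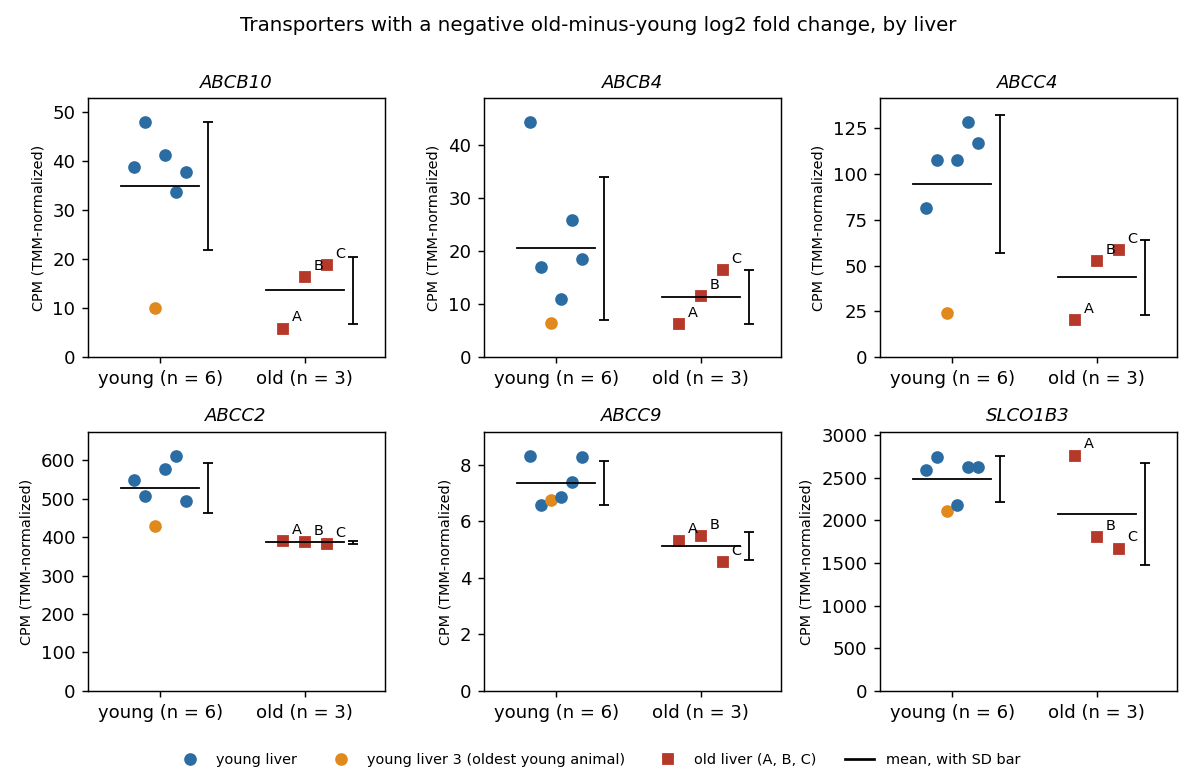
CPM of 6 transporter genes in each of 6 young (circles, young liver 3 in orange) and 3 old livers (squares, lettered), with the mean as a line and the SD as a bar beside it. In ABCB10, ABCB4 and ABCC4 old liver A and young liver 3 have the lowest values, whereas ABCC2 has its old livers together at 381 to 389.8 CPM.

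Taken over the 35 genes, A was the highest of the 9 livers in 11 and the lowest in 10, where the shares over all genes tested were 36.2% and 32.5%. Young liver 3 was the lowest of the young livers in 15 members (42.9%, against 34.3% of all genes) and the highest in 6 (17.1%, against 35.5% of all genes). In 7 members, ABCB1, ABCB10 and ABCC4 among them, A was the lowest of all livers and young liver 3 the lowest of the young (20.0%, against 14.9% of all genes). With both set aside, B and C lay below the other 5 young livers in 13 members and above them in 7 (37.1% and 20.0%, against 19.4% and 20.6% of all genes). The fit without these 2 libraries called 11 of the 35 members lower and 3 higher (SLC22A5, SLC22A7 and SLC22A31). Over all genes it called 11.7% lower and 14.2% higher. The share called lower was thus larger among the members than among all genes, and the share called higher was smaller. Those called lower included ABCB10 and the pumps ABCB1, ABCC2, ABCC3 and ABCC4, as well as the uptake carriers SLCO1B3 and SLCO2A1. These counts describe 2 old and 5 young animals, and the choice of the libraries to leave out came from the data. With A alone left out, 1 member (ABCC8) was called lower, where 1.35% of all genes were.

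**Figure D4:**
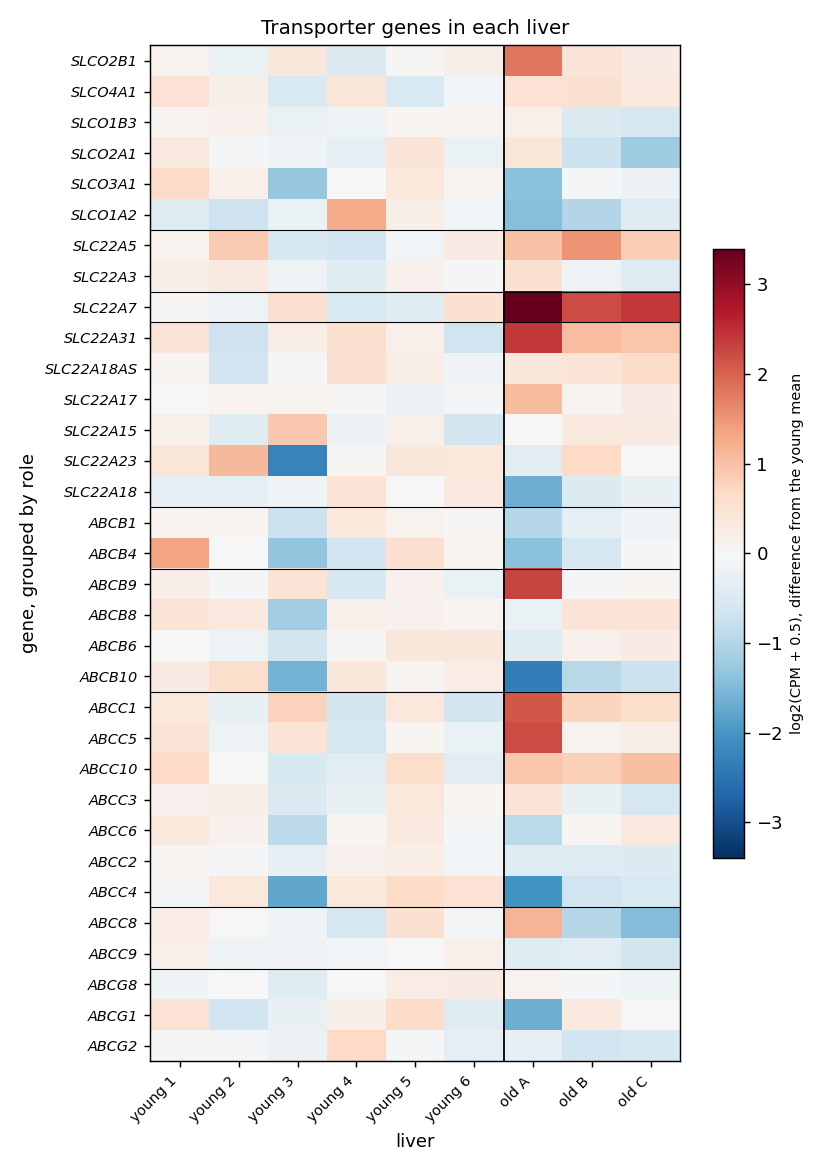
Values of 33 of the 35 genes tested (rows, grouped by role) in each liver (columns), as log2(CPM + 0.5) minus the mean of the young livers, from -2.35 to 3.38. Old liver A holds the strongest values of both signs, SLC22A7 is high in A, B and C, and young liver 3 shares with A low values of ABCB10 and ABCC4.

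Of the 53 genes, 18 did not have counts enough to be tested, with at most 19 counts in any library. SLC22A11, SLC22A12, SLC22A14 and ABCC12 had 0 counts in every liver, which allows up to 0.135 to 0.217 CPM, depending on the library, by counting error alone. SLC22A6 and SLC22A8, the renal organic anion transporters OAT1 and OAT3, had 10 and 27 counts over all 9 livers, and the renal cation carrier SLC22A2 had 17. SLC47A1, or MATE1, an exchanger that extrudes organic cations into bile and urine in human and mouse, had 4 counts over the 6 young livers, 0 in B, 2 in C and 19 in A. ABCG4 likewise had 19 counts in A, with 17 over the young and 24 over the 3 old livers. The remainder were SLCO1C1, SLCO4C1, SLCO5A1, SLCO6A1, SLC22A4, SLC22A13, SLC22A16, SLC22A20 and ABCC11, with 1 to 27 counts in total.

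The genes that control these transporters or work beside them were counted in the same fit. Over the lists in this paragraph, 6.67% to 17.1% of genes were called in either direction, near the 15.4% of all genes tested (11.7% higher, 3.65% lower). Of 35 nuclear receptors and transcription factors of transporter genes, 5 were called higher, 1 was called lower and 29 did not pass. Their median log2 fold change was 0.27, against 0.02 over all genes. NR1H2, the oxysterol receptor LXR beta, was higher in every old liver, with 31.5 to 50.8 CPM in the young livers and 118, 57.0 and 56.9 in A, B and C (log2 fold change 0.92, SE 0.27, edgeR FDR = 0.0687). AHR, the aryl hydrocarbon receptor that induces ABCG2 and CYP1 genes, was lower in every old liver. It had 65.6 to 217 CPM in the young livers and 25.1, 51.4 and 54.8 in A, B and C (log2 fold change -1.73, SE 0.42, edgeR FDR = 0.0503). The bile acid receptor NR1H4 and the drug receptors NR1I2 and NR1I3 had log2 fold changes of 0.76, 0.53 and -0.27 (edgeR FDR = 0.231, 0.173 and 0.579), and HNF4A, a master regulator of the hepatocyte, had 0.16 (edgeR FDR = 0.759). Without A, neither NR1H2 (0.48) nor AHR (-1.46) passed, at edgeR FDR = 0.227 and 0.131. In the bile salt list, SLC10A1, the hepatocyte's sodium-dependent bile salt carrier, was the only one of 6 genes called, with a log2 fold change of -1.37 (edgeR FDR = 0.0990). It had 1415 to 2544 CPM in the young livers and 198 in A, 1052 in B and 1056 in C, and without A it did not pass (-0.91, edgeR FDR = 0.103). ABCB11 had 457 to 750.3 CPM in the young livers and 739, 427 and 413 in A, B and C (log2 fold change -0.35, edgeR FDR = 0.403), with A inside the young range and B and C below it. Of 15 scaffold and polarity genes of the hepatocyte membranes 1 was called lower, the vesicle GTPase RAB11A (log2 fold change -0.89, edgeR FDR = 0.0998, and -0.57 with FDR = 0.192 without A). Of 14 genes of the other ABC families 2 were called higher, ABCF1 and ABCF3, which work in translation and do not carry drugs (log2 fold changes 1.14 and 0.93). Without A neither passed, at log2 fold changes of 0.30 and 0.41 (edgeR FDR = 0.472 and 0.345). Of 12 CYP1 to CYP3 enzymes 1 was called lower, CYP2A13 (log2 fold change -1.40, edgeR FDR = 0.0773), which did not pass without A (-1.01, edgeR FDR = 0.151). NR1H2, AHR, SLC10A1, RAB11A, ABCF1, ABCF3 and CYP2A13 each also lost the call when young liver 2, 4, 5 or 6 was left out. All but AHR lost it without young liver 1 too, and RAB11A without young liver 3. SLC10A1, RAB11A and ABCF1 lost it with upper quartile scaling, and SLC10A1 and RAB11A with no filter on low counts. The fits without young liver 2, 4, 5 or 6 called 1.02% to 2.53% of all genes higher and 0.507% to 0.775% lower. Without young liver 1 the shares were 6.43% and 1.69%, and without young liver 3 they were 17% and 7.06%. The fit without A called 2.13% and 1.35%.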

How the data were processed

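RNA from 9 livers was sequenced as single-end reads of polyadenylated RNA. The authors mapped reads with STAR (2.4.1d, per the labels), keeping reads with a single place in the genome, and counted them with HTSeq on their own annotation, so reads that fit close paralogs equally well are missing. The authors deposited raw counts per gene, without normalisation. No source used here states the HTSeq version or its strand setting. No coordinates are printed, since the only gene table at hand belongs to a different assembly.

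Groups follow the labels. All pairs of libraries differed by more than sampling noise (chi-square of 29.0 or more per degree of freedom). Left out were 93 rows whose place depends on upper and lower case, where young and old columns are out of step, and 25 symbols turned into dates (0.319% and 0.133% of counts). No member is among them. Counts were tested with edgeR 4.0.16 in R 4.3.3 (TMM, filterByExpr by group, robust glmQLFit, glmQLFTest, no covariates, Benjamini-Hochberg, FDR 0.1), tested on simulated data. Standard errors are the log2 fold change divided by the square root of F. P-values measure the spread between these animals. Alternatives were DESeq2 1.42.0 (used by the study), limma 3.58.1 voom, other scalings and filters, all rows, FDR 0.05, and libraries left out. Named genes were those called, those without overlap between groups, and main hepatic carriers fixed by role. From the context lists, up to 4 called genes by lowest p and 6 fixed regulators or pumps were named, of which a part is printed. The members, lists and rules were chosen with earlier results of these data known. A few genes enter the counts but are not reported here by name. Planned promoter and protein comparisons were not made.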

Additional observations from a re-analysis of the deposited data

Results flagged for a closer look

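In 5 of the 35 genes tested 1 young liver lay far from the other 5 young livers, by Dixon's criterion at the 95% level, which flags about 1 group in 20 by chance. The share over all genes was not counted. Young liver 3 was the lowest of the young livers in 34.3% of all genes and the highest in 35.5%. The 1 in 20 is thus no background for these libraries, and the count cannot be read as particular to these genes. ABCB10 had 9.97 CPM in young liver 3, with 33.8 CPM in the next lowest young liver, and ABCB8 had 5.08 CPM there, with 13.0 CPM in the next lowest. ABCG2 had 7.68 CPM in young liver 4, with 4.56 CPM in the next highest, and SLCO1A2 had 3.84 CPM there, with 1.59 CPM in the next highest. The values of SLCO1A2 rest on 12 to 65 counts per young liver and those of ABCG2 on 52 to 130.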

How the results depend on the processing

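SLC22A7 passed in every fit run. The number of members called higher was 4 with edgeR, 7 with DESeq2 and with voom, and 1 at FDR 0.05. It was 1 to 7 when single libraries were left out (1 without old liver A, without young liver 4, 5 or 6, and 7 without B or C). Over all genes, 11.7% were called higher with edgeR, 13.5% with DESeq2 and 20.5% with voom. That share was 2.13% without A and 1.63%, 2.53% and 1.31% without young liver 4, 5 and 6. Without B and C it was 16.5% and 15.9%. The number called lower was 0 of 35 with edgeR, 5 of 41 with DESeq2, 13 of 35 with voom and 11 of 35 without A and young liver 3. Over all genes the shares were 3.65%, 7.93%, 16.7% and 11.7%. Without single libraries 0 to 4 members were called lower (1 without A, 4 without young liver 3, 2 without C). With voom the median log2 fold change was -0.21 over the members and -0.40 over the cation and carnitine carriers, which had -0.38 without A and young liver 3. The median of the ABCG genes was -0.51 to -0.13 without single libraries. Small differences changed sign: ABCB6 was 0.056 with voom, 0.0090 with at least 10 counts in every liver, 0.065 without A and young liver 3 and -0.15 to 0.17 without single libraries. ABCC6 was 0.021 with voom, 0.018 without both and -0.42 to 0.16 without single libraries, and ABCG1 was 0.063, 0.052 and -0.69 to 0.11. SLC22A3 was 0.0024 with TMM without the 50 most counted genes, 0.013 with at least 10 counts and -0.34 to 0.19 without single libraries, where ABCC3 had -0.42 to 0.13, ABCG8 -0.13 to 0.0060 and NR1H4 -0.085 to 1.06. HNF4A was -0.033 with voom and -0.0063 without both. The cause of these shifts was not tested. Genes under about 1 CPM, such as SLCO1A2, are limited by depth. No paired analysis was possible because the young and old livers came from different animals.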
